A study of Mus musculus with 12 samples.

Results

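Arterial endothelial cells of the mouse embryo that carried an active Ly6a-GFP reporter were compared with those that did not. The comparison used 6 of the 12 deposited libraries, 3 of GFP-positive (GFP+) and 3 of GFP-negative (GFP-) endothelial cells, and the 12375 of 33531 listed genes that reached 1 FPKM in 3 or more of these 6. FPKM is a count of sequenced fragments divided by the length of the transcript and by the size of the library. The cells came from 3 kinds of large artery (dorsal aorta, umbilical and vitelline) of 122 conceptuses at embryonic day 11.5, from C57BL/6 x 129S1/SVImJ F1 mothers and Tg(Ly6a-GFP) fathers, on a background labelled B6129S. All groups, the GFP- cells included, came from embryos with the transgene, in which GFP reports the activity of Ly6a regulatory sequence and not of a cell type. Endothelial cells were gated as positive for CD31, CD144 and ESAM and negative for c-Kit, which gave 377000 GFP+ and 791000 GFP- cells. Each population was pooled into 3 samples that the labels call independent and biological, with the number of embryos and cells in a pool not given. The other 6 libraries, 3 of GFP+ and 3 of GFP- hematopoietic cluster cells (the same gate but c-Kit-positive, 53000 and 413000 cells), served for the estimate of spread and for 1 contrast at the end.

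Ly6a encodes Sca-1, a small surface protein of the Ly6 family that marks adult blood stem cells and many arterial endothelial cells. At this stage the walls of large arteries thicken: endothelial cells and the mural cells around them lay down elastin on a scaffold of fibrillin and fibulin microfibrils, and the endothelium rests on a basement membrane of laminins, collagen IV, nidogens and perlecan. Arterial identity rests on Notch signalling between neighbouring endothelial cells, in which Jag and Dll ligands activate receptors that induce Hey and Hes repressors, and flow along the wall raises Klf2, Klf4 and their targets. A small share of arterial endothelium is hemogenic and gives rise to the blood clusters.

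The reporter's own gene followed the sort. Ly6a was at 8.82, 8.42 and 9.05 FPKM in the GFP+ libraries and at 1.26, 1.37 and 0.0585 FPKM in the GFP- libraries. All GFP+ values lay above all GFP- values, and the third GFP- library was lowest. The log2 difference, taken here and below as GFP+ minus GFP- on log2(FPKM + 1), was 2.45 ± 0.36 (SE, limma adjusted p = 0.00125), and with a pseudocount of 0.1 it was 3.70. Reads of Ly6a and of any Ly6a sequence in the transgene cannot be told apart, and Ly6a has close relatives in its gene cluster. Each of the 4 other given markers rose as well: Eln, Htra1, Jag1 and Gja5 are described with their groups below.

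Endothelial markers were high in both groups and somewhat higher in GFP+ cells. Cdh5, which encodes the gate protein CD144 (VE-cadherin), was at 705, 740.2 and 693 FPKM in GFP+ and 543, 565 and 431 FPKM in GFP- libraries. Pecam1 (CD31) was at 439, 421 and 414 and 330.5, 356 and 298 FPKM, and Esam at 254, 275 and 257 and 219.6, 221 and 184 FPKM. The groups did not overlap for any of the 3. Cdh5 (log2 difference 0.48 ± 0.13, limma adjusted p = 0.0295) and Pecam1 (0.37 ± 0.11, adjusted p = 0.0446) passed the test, and Esam (0.34 ± 0.14, adjusted p = 0.134) did not. Since each library is a pool of sorted cells, more of a transcript per cell and more cells of a type in the pool cannot be told apart, here and for every gene below. The Cdh5 call was lost without any GFP+ library or GFP- replicate 3 (lowest value 0.36), and the Pecam1 call without any library other than GFP- replicate 2 (lowest value 0.31). Kit, the negative gate, was listed at 13.3, 14.5 and 14.2 FPKM in GFP+ and 12.6, 17.6 and 18.6 FPKM in GFP- libraries, and the groups overlapped. In the c-Kit-positive cluster libraries it was at 34.2, 39.2 and 33.2 FPKM in GFP+ and 19.2, 25.8 and 19.1 FPKM in GFP- cells. Among GFP- cells, Kit RNA thus differed little between the lowest cluster and the highest endothelial library. Ptprc (CD45, of most blood cells) was under 1 FPKM in each of the 6 libraries, from 0 to 0.624 FPKM.

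Of the 12375 genes, 973 (7.86%) were higher and 919 (7.43%) lower in GFP+ endothelium at a limma adjusted p under 0.05, which is 15.3% in either direction. The rises reached further: 279 of the higher genes had a log2 difference over 1 and 47 over 2, against 80 of the lower genes under -1 and 3 under -2. The median over all tested genes was -0.04. In the plot of difference against level these large rises run from low levels up to those of Vwf and Fn1.

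**Figure D1:**
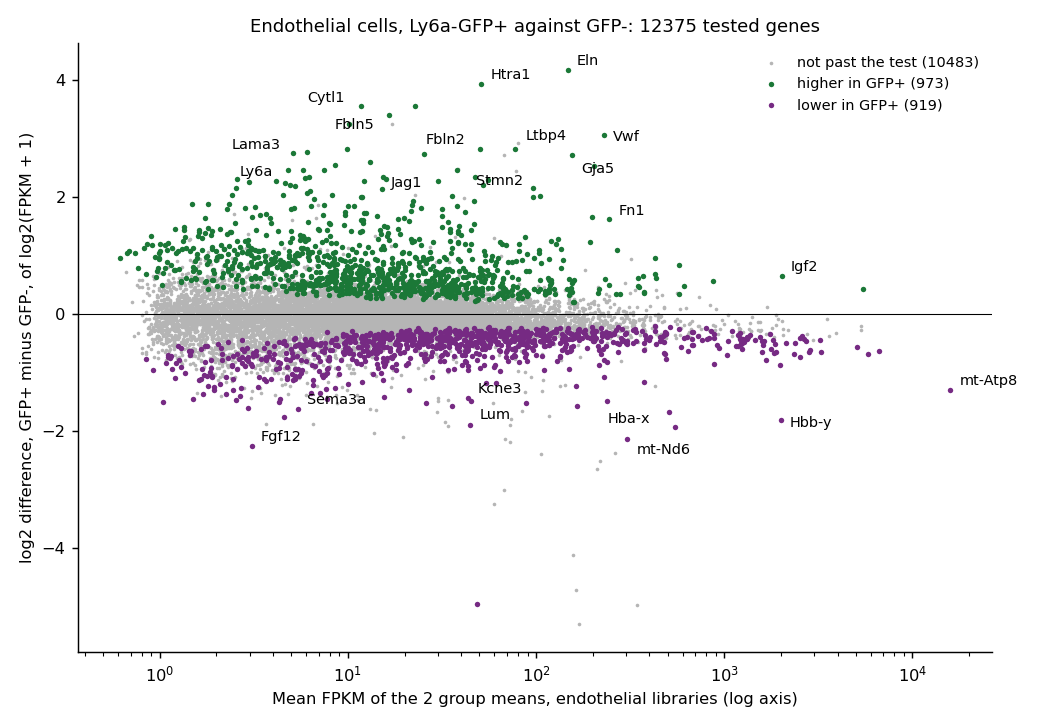
Log2 difference between GFP+ and GFP- endothelial libraries (y axis, on log2(FPKM + 1)) against the mean FPKM of the 2 group means (x axis, log scale), 1 point per tested gene, with 973 genes past the test above 0 in green and 919 below 0 in purple. Eln stands highest at 4.16, and the lowest purple point is an unlabelled gene model outside the naming rule.

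The libraries differed in ways that bear on this count. The FPKM of GFP+ libraries summed to 555675 to 604852 and that of GFP- libraries to 625401 to 691948. Mitochondrially encoded genes held 4.66% to 6.47% of the sum in GFP+ and 8.53% to 8.76% in GFP- libraries, and genes of ribosomal proteins 17.1% to 18.8% and 19.3% to 21.7%. Scaling the libraries to an equal sum moved the median of all genes by 0.18, to 0.15, and gave 1965 higher and 300 lower genes, so that 86.8% instead of 51.4% of the called genes were higher. Short transcripts were lower in GFP+ cells: the median log2 difference was -0.26 for 867 genes of at most 1000 bases and 0.09 for 640 genes over 8000 bases. The part of transcript length, RNA quality or library making in the result was not tested. Without GFP+ replicate 1, 2 or 3, the genes higher were 598, 640 or 567, and without GFP+ replicate 1 or 3 or GFP- replicate 1 or 3, the genes lower were 498, 416, 548 or 475. Some zeros are doubtful: Ddb1, a gene all cells use, is listed at 0, 261 and 0 FPKM in the GFP+ libraries, and 32 tested genes with a median of 10 FPKM or more have such a zero in an endothelial library, none of them named below as changed. Within each group the libraries correlated across genes at r = 0.957 to 0.979, and between the groups at 0.937 to 0.964.

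The gene lists differed in how many members passed. The list counts given below are to be read against the 7.86% of all genes called higher and 7.43% called lower, and the plot of lists shows both backgrounds. A call is said to hold where it passed in the same direction under each of the 16 alternative settings that tested the gene. Genes that passed the filter through 1 group had little room to do otherwise: of 88 with 1 FPKM or more in all GFP+ and no GFP- library 68 were higher, and of 46 with the reverse 23 were lower. Either kind was not tested where a library of its group was left out, which counts here as no loss.

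**Figure D2:**
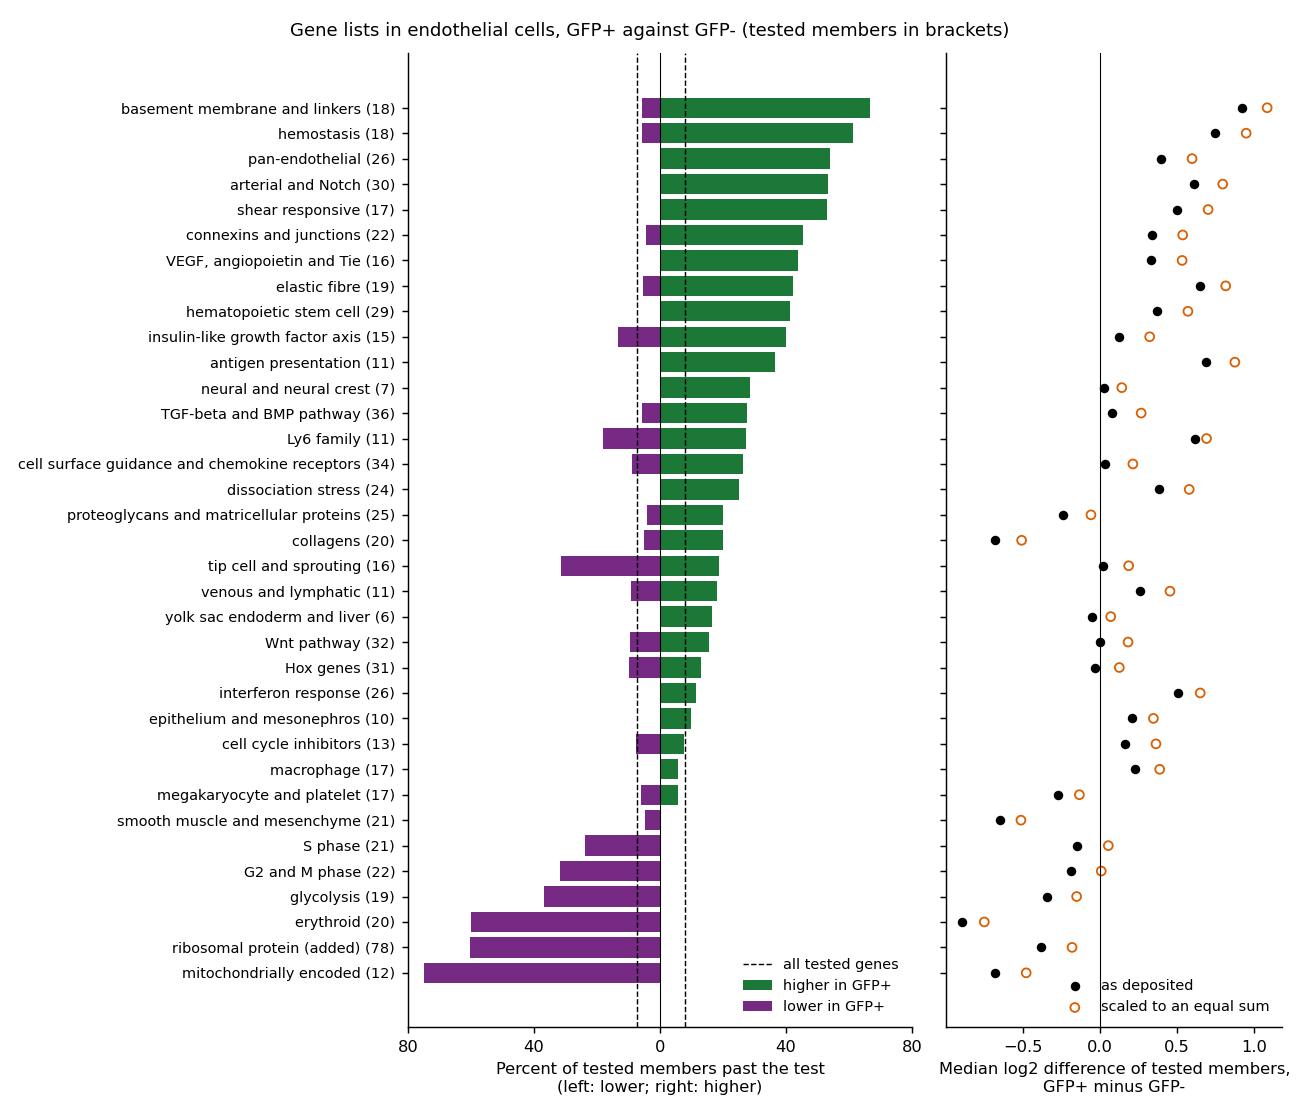
Left, percent of tested members past the test in each of 35 gene lists (higher to the right, lower to the left), with dashed lines at 7.86% and 7.43% for all tested genes; right, median log2 difference of the tested members as deposited (black) and after scaling to an equal sum (open orange). Basement membrane genes lead on the right side, mitochondrially encoded genes on the left, and the medians of S phase, G2 and M phase, yolk sac and Hox genes change sign with the scaling.

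Genes of elastic fibres included Eln, the gene with the largest rise. Of 22 listed, 19 were tested, 8 rose and 1, Mfap4, fell, with a median log2 difference of 0.65, and each of the 8 rises held under every alternative run. Eln, which encodes the elastin precursor, was at 272, 211 and 359.5 FPKM in GFP+ and 14.9, 11.5 and 17.6 FPKM in GFP- libraries. The groups were far apart, and the log2 difference of 4.16 ± 0.32 was the largest of any gene called higher (adjusted p = 1.09e-05). Fbln5, a fibulin that helps assemble elastin and binds it to cells, was at 29.4, 24.8 and 38.6 and 1.87, 1.38 and 2.87 FPKM. Its log2 difference was 3.40 ± 0.24 (adjusted p = 7.39e-06), with the third library the highest of its group on both sides. Fbln2, a related fibulin of the subendothelial matrix, was at 84.7, 81.2 and 98.2 and 11.6, 6.51 and 20.4 FPKM. Its groups were apart as well (2.81 ± 0.41, adjusted p = 0.00118), with a wide spread in GFP- cells.

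The microfibril scaffold moved with them. Fbn1, the main microfibril protein, was at 36.4, 33.6 and 37.05 FPKM in GFP+ and 9.04, 7.91 and 8.88 FPKM in GFP- libraries, a difference of 1.93 ± 0.14 with little spread in either group (adjusted p = 7.39e-06). Ltbp4, which tethers latent TGF-beta to microfibrils and takes part in elastin assembly, was at 125, 142 and 140.4 and 21.9, 20.1 and 13.99 FPKM. The difference was 2.82 ± 0.16 (adjusted p = 1.24e-06). Mfap5, a microfibril-associated glycoprotein, rose by 2.46 from 1.09 ± 0.323 to 10.5 ± 1.11 FPKM (SD, n = 3 in each group, limma adjusted p = 7.39e-06). The remaining rises were Fbn2 (0.80) and Ltbp3 (1.04), named after their values were seen. The crosslinking enzyme gene Lox, at 7.81, 5.47 and 9.55 and 3.97, 2.74 and 9.67 FPKM, did not pass and its groups overlapped. Mfap4, at 7.42, 10.9 and 8.51 and 20.2, 13.1 and 31.8 FPKM, had a difference of -1.12 ± 0.34 (adjusted p = 0.0467) that was lost without any library other than GFP- replicate 2 and in most other alternatives.

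The protease gene Htra1, whose secreted product cleaves matrix proteins and dampens TGF-beta signalling, had the next largest rise. It was at 86.6, 102 and 102 FPKM in GFP+ and 6.46, 3.71 and 6.62 FPKM in GFP- libraries. The groups were far apart, with a log2 difference of 3.92 ± 0.19 (adjusted p = 6e-07). The plot of single libraries shows the same separation for the other genes that the account turns on.

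**Figure D3:**
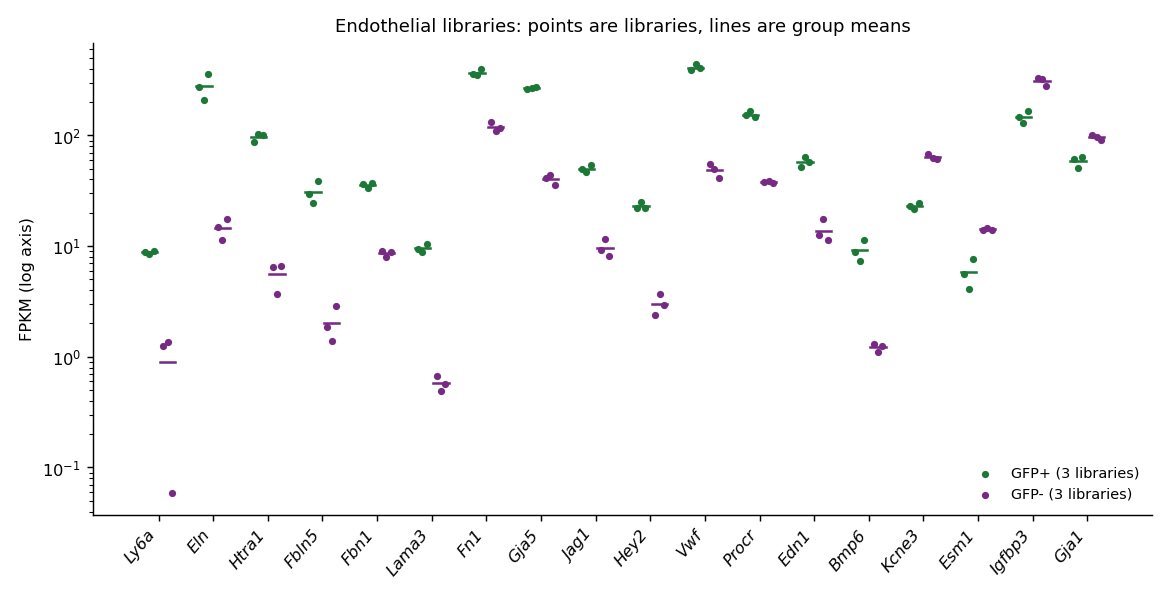
FPKM (y axis, log scale) of 18 genes in the 3 GFP+ (green) and 3 GFP- (purple) endothelial libraries, each point a library and each line a group mean. The first 14 genes are higher in every GFP+ library than in any GFP- library, and the last 4, Kcne3, Esm1, Igfbp3 and Gja1, are lower in every GFP+ library.

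Basement membrane and linker genes had the largest share of rises of any list: 12 of 18 tested were higher and 1 lower, with a median of 0.93. A pair of laminin chain genes better known from epithelia rose. Lama3, an alpha chain, was at 9.48, 8.89 and 10.4 FPKM in GFP+ and 0.669, 0.494 and 0.567 FPKM in GFP- libraries. Lamb3, a beta chain, was at 5.23, 5.22 and 4.42 FPKM and, in GFP- libraries, was listed at 0.370, 0.293 and 0 FPKM. In every GFP- library both were under 1 FPKM, and no GFP+ value came near them. The log2 differences were 2.75 ± 0.15 (adjusted p = 1.23e-06) and 2.30 ± 0.18 (adjusted p = 1.22e-05), the latter 4.25 with a pseudocount of 0.1. Lamc3, a gamma chain, was at 11.5, 10.3 and 12.2 and 1.04, 0.582 and 0.847 FPKM, with no overlap and a difference of 2.76 ± 0.16 (adjusted p = 1.58e-06).

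More abundant basement membrane genes rose by less. Fn1 (fibronectin, which links cells to matrix through integrins) was at 361, 351 and 397 FPKM in GFP+ and 132, 111 and 117 FPKM in GFP- libraries, a difference of 1.62 ± 0.15 (adjusted p = 3.98e-05). Lama5, the alpha chain of laminins typical of quiescent vessels, was at 15.5, 22.6 and 23.6 and 6.26, 2.39 and 2.48 FPKM (2.27 ± 0.28, adjusted p = 0.000391; named after its values were seen). The integrin ligand gene Npnt rose from 5.20 ± 1.47 to 19.2 ± 1.66 FPKM and the basement membrane protein gene Tinagl1 from 38.2 ± 4.73 to 90.8 ± 8.88 FPKM (SD, n = 3; limma adjusted p = 7.28e-05 and 2.74e-05). Nid2, a nidogen that bridges laminin and collagen IV, fell by 0.51 (adjusted p = 0.0126), from 92.9, 87.4 and 70.1 to 58.6, 53.9 and 61.7 FPKM. Scaling to an equal sum gave -0.31 and ended its call, and the other nidogen gene, Nid1, passed in the other direction (0.43, adjusted p = 0.0466; named after its values were seen). Of the 12 rises, 11 held under every alternative that tested them. Lama3 and Lamb3 passed the filter through the GFP+ libraries alone. They were tested in 13 and 12 of the 16 alternatives, and not where a GFP+ library was left out.

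Collagen genes went both ways. Of 20 tested, 4 rose and 1 fell, while the median was -0.68. Col18a1, the collagen of vascular basement membranes that yields endostatin, was the most abundant riser at 746, 741 and 724 FPKM in GFP+ and 479.9, 419.95 and 354 FPKM in GFP- libraries (0.83 ± 0.10, adjusted p = 0.000449). Col5a2 (0.96 ± 0.14) and the transmembrane collagen Col13a1 (0.92 ± 0.15) also rose. Col4a2, a chain of the collagen IV network, rose by 0.61 (adjusted p = 0.0167), and this call was lost without GFP+ replicate 1 (0.59) or 3 (0.60). Col15a1, the collagen most related to Col18a1, went the other way, at 109, 87.2 and 111 against 219, 209.8 and 165 FPKM, and fell by 0.94 (adjusted p = 0.004). The groups did not overlap for Col18a1 or Col15a1. The abundant fibrillar collagens of mesenchyme did not pass. Col1a1, the main collagen of mesenchyme, was at 76.4, 43.9 and 118 FPKM in GFP+ and 254, 65.5 and 298 FPKM in GFP- libraries, and Col3a1 at 71.2, 47.2 and 109 and 213, 76.1 and 291 FPKM. In both, GFP- replicate 2 lay among the GFP+ values. Without that library, and also with the replicate number in the model, 8 collagens were lower instead of 1. Among proteoglycan and matricellular genes (25 tested, 5 higher, 1 lower, median -0.24) the small leucine-rich proteoglycan gene Bgn rose by 1.04 ± 0.09 and Srgn, the proteoglycan of secretory granules, by 1.79 ± 0.21 (adjusted p = 1.94e-05 and 0.000273). The 1 lower gene was Lum, described with mesenchyme below, and without GFP- replicate 2 there were 7.

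Arterial and Notch genes followed. Of 30 tested, 16 rose and none fell, with a median of 0.61, and 15 of the 16 held under every alternative. Gja5, which encodes connexin 40, the gap junction protein of arterial endothelium, was at 261, 271 and 277 FPKM in GFP+ and 41.6, 43.5 and 35.98 FPKM in GFP- libraries. The spread within either group was small beside the gap between them, and the difference was 2.71 ± 0.17 (adjusted p = 2.77e-06). Jag1, a Notch ligand, was at 49.8, 46.4 and 54.4 and 9.28, 11.7 and 8.22 FPKM, with a difference of 2.27 ± 0.12 (adjusted p = 8.63e-07). Hey2, a Notch-induced repressor of arterial endothelium, was at 22.1, 25.1 and 22.1 and 2.40, 3.71 and 2.96 FPKM. Its groups were as clearly apart (2.59 ± 0.20, adjusted p = 1.2e-05). The kinase gene Bmx rose by 2.03 ± 0.16 and the water channel gene Aqp1 by 1.85 ± 0.17 (adjusted p = 1.53e-05 and 3.85e-05).

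The core Notch genes of arterial endothelium differed less. Dll4, the main arterial Notch ligand, was at 48.1, 46.6 and 47.4 FPKM in GFP+ and 46.4, 48.6 and 34.7 FPKM in GFP- libraries (0.14 ± 0.16, adjusted p = 0.587), and the groups overlapped. Notch1 was at 47.9, 40.4 and 45.002 and 35.5, 37.5 and 23.9 FPKM (0.47 ± 0.16, adjusted p = 0.0728), Hey1 had a difference of 0.27 ± 0.14 (adjusted p = 0.221) and Efnb2, the arterial ephrin, one of 0.40 ± 0.13 (adjusted p = 0.0697). None of the 4 passed, and they were named after their values were seen. Dll1, another Notch ligand named in the same way, rose by 1.48 ± 0.15 (adjusted p = 0.0001), at 22.9, 27.3 and 21.98 and 6.78, 7.97 and 9.26 FPKM. Unc5b, a netrin receptor of arteries, was at 45.4, 40.9 and 45.5 and 63.7, 53.6 and 45.7 FPKM (-0.29 ± 0.11, adjusted p = 0.0956), and passed only without GFP- replicate 3 (-0.40).

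Upstream sequence is shown for 4 genes called higher, as the stretches a reader would search for sites of Notch, flow and SoxF factors. These are the 250 bases before the annotated start of Hey2, Gja5, Edn1 and Jag1. They come from RefSeq on build GRCm38.p6 and read 5′ to 3′ on the gene's strand. The 4 genes and the core searched in each were picked and not taken by a rule, so a match in each is not a result. Capitals mark the match to the core searched for that gene on both strands: TGGGAA, the core of the Notch effector RBPJ, in Hey2; CACCC, the core bound by KLF factors, in Gja5 and Edn1; and ACAAT, a SOX core, in Jag1.
Hey2: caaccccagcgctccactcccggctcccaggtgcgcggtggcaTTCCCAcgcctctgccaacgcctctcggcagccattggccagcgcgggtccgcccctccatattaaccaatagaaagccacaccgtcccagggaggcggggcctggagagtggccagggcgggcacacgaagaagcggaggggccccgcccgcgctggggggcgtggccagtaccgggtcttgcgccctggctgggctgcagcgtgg
Gja5: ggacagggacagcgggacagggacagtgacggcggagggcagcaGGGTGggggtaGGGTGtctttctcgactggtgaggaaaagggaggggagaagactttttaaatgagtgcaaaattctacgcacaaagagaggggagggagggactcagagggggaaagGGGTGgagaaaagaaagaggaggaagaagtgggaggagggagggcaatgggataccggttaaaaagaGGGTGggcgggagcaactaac
Edn1: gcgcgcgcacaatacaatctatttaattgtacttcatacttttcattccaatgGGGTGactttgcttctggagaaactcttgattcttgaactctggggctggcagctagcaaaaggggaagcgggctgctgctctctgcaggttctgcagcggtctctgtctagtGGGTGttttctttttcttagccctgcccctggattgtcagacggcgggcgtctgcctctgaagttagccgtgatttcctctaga
Jag1: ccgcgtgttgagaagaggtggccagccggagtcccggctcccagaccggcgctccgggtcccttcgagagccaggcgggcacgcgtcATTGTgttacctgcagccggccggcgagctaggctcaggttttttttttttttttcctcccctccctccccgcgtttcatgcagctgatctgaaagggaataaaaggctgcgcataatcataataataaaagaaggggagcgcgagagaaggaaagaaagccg
The stretches lie at chr10:30842784-30843033 (minus strand), chr3:97032152-97032401 (plus strand), chr13:42301226-42301475 (plus strand) and chr2:137116521-137116770 (minus strand). Counted from the gene start, the matches begin at -207 in Hey2, at -206, -195, -88 and -21 in Gja5, at -197 and -84 in Edn1 and at -163 in Jag1. Of the other cores, Edn1 also holds 4 SOX matches, which are not capitalised, and the windows of Hey2, Gja5 and Jag1 hold only the core marked. Matches of this length are frequent: 21.6% of all 32851 RefSeq windows of 250 bases hold the RBPJ core, 52.0% the KLF core and 27.7% the SOX core. Of the 719 higher genes with a window, 21.98%, 66.8% and 16.4% hold them, of the 672 lower genes 19.2%, 52.8% and 21.3%, and of the 8959 tested genes with a window 20.5%, 57.4% and 17.6%. A match describes letters and not binding, and no test was made.

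Junction genes were mixed. Of 22 connexin and junction genes tested, 10 rose and 1 fell, with a median of 0.34, and the rises were 6 without GFP+ replicate 2, GFP+ replicate 3 or GFP- replicate 3. Ocln, the tight junction protein occludin, was at 10.1, 10.4 and 11.2 FPKM in GFP+ and 1.22, 1.39 and 1.33 FPKM in GFP- libraries, a difference of 2.32 ± 0.14 (adjusted p = 2.19e-06). Jam2, a junctional adhesion molecule, rose by 1.52 ± 0.11 (adjusted p = 8.54e-06). The connexins parted: beside Gja5, Gja4 (connexin 37) rose by 1.10 ± 0.14, at 172, 199.6 and 186 against 101, 81.95 and 76.1 FPKM (adjusted p = 0.00056). Gja1 (connexin 43) was at 60.7, 50.9 and 63.3 in GFP+ and 101, 96.5 and 90.2 FPKM in GFP- libraries and fell by 0.71 (adjusted p = 0.000524). The groups overlapped for neither.

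Genes that respond to flow and genes of hemostasis had more rises than falls. Of 17 shear-responsive genes tested, 9 rose and none fell (median 0.50, 8 of the 9 held under every alternative), and of 18 hemostasis genes 11 rose and 1 fell (median 0.75, 10 of the 11 held). The flow-induced transcription factor gene Klf2 was at 164, 189 and 156 FPKM in GFP+ and 74.5, 80.8 and 58.6 FPKM in GFP- libraries, and Klf4 at 63.6, 44.8 and 55.03 and 21.7, 28.6 and 18.2 FPKM. Every GFP+ library exceeded every GFP- library. The differences were 1.24 ± 0.14 and 1.23 ± 0.17 (adjusted p = 0.000153 and 0.000895). Both factors are also raised when tissue is dissociated. In the list of dissociation stress genes 6 of 24 tested rose and none fell (median 0.38), among them Btg2 (0.73 ± 0.09) and Dusp1 (0.73 ± 0.15), and the part of dissociation in the result was not tested. Edn1, the vasoconstrictor endothelin 1, was at 52.3, 63.7 and 57.2 and 12.5, 17.5 and 11.3 FPKM (2.01 ± 0.17, adjusted p = 2.74e-05), and Nos3, the endothelial nitric oxide synthase, rose by 0.92 ± 0.14 (adjusted p = 0.00167).

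Vwf, the platelet-tethering von Willebrand factor, was at 388, 441 and 403 FPKM in GFP+ and 55.2, 49.9 and 41.5 FPKM in GFP- libraries. No values overlapped, and the difference of 3.05 ± 0.14 had the smallest adjusted p of any named gene (4.08e-07). Anticoagulant genes were higher in the same libraries. Procr, the endothelial protein C receptor, was at 152, 166 and 145 and 37.9, 38.6 and 36.9 FPKM (1.998 ± 0.11, adjusted p = 1.39e-06), and Thbd, thrombomodulin, at 63.4, 61.9 and 63.7 and 29.3, 27.9 and 24.4 FPKM (1.19 ± 0.08, adjusted p = 7.39e-06). In both, the values within a group were close to each other and the groups were apart. Entpd1 (CD39, which breaks down ATP and ADP) rose by 2.02 ± 0.21 and Ptgis, the prostacyclin synthase, by 1.80 ± 0.16 (adjusted p = 0.000103 and 3.97e-05). Plau, the urokinase activator of plasminogen, was at 37.7, 29.9 and 34.6 and 56.5, 59.5 and 43.6 FPKM and had a difference of -0.62 ± 0.16 (adjusted p = 0.022). That call was lost without GFP+ replicate 2 (-0.53), GFP+ replicate 3 (-0.64), GFP- replicate 1 (-0.57) or GFP- replicate 2 (-0.54) and after scaling to an equal sum (-0.42).

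Of 26 pan-endothelial genes tested, 14 rose and none fell (median 0.40), and 9 rose without GFP+ replicate 3. Scaled to an equal sum, 21 rose with a median of 0.60, and Esam passed there (0.54, limma adjusted p = 0.0206), so this count rests on the scaling too. The C-type lectin gene Clec14a was at 87.99, 104 and 85.3 FPKM in GFP+ and 41.5, 44.4 and 34.1 FPKM in GFP- libraries (1.19 ± 0.12, adjusted p = 8.37e-05), the calcitonin receptor partner gene Ramp2 at 545, 573 and 577 and 316, 299.9 and 262 FPKM (0.95 ± 0.12) and the sialomucin gene Emcn at 513, 549 and 512 and 337, 369.5 and 319 FPKM (0.62 ± 0.09). The groups were apart for each. The endothelial transcription factor genes Fli1 (0.04), Erg (0.29), Sox18 (-0.05) and Sox7 (0.14) did not pass, and the receptor gene Robo4, at 73.5, 69.9 and 72.7 and 89.8, 82.8 and 70.6 FPKM, did not either (-0.16 ± 0.12, adjusted p = 0.423, positive at 0.041 with an equal sum). The first 4 were named after their values were seen.

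In the VEGF, angiopoietin and Tie system 7 of 16 tested genes rose and none fell (median 0.33, 6 of the 7 held under every alternative). Among the ligands, Vegfa was at 27.1, 20.6 and 23.9 FPKM in GFP+ and 8.96, 10.4 and 8.52 FPKM in GFP- libraries (1.27 ± 0.13, adjusted p = 0.000102) and Vegfc at 58.1, 48.97 and 64.9 and 25.8, 20.8 and 19.3 FPKM (1.35 ± 0.15, adjusted p = 0.000143). Both groups were apart in each. Among the receptors, Tek (Tie2, for angiopoietins) was at 179.96, 183 and 171 and 79.4, 95.4 and 61.1 FPKM (1.19 ± 0.15, adjusted p = 0.000427), and its partner Tie1 rose by 0.65 ± 0.13 and the co-receptor gene Nrp1 by 0.46 ± 0.08 (adjusted p = 0.00823 and 0.00297). The phosphatase gene Ptprb, which restrains Tie2, rose by 1.75 ± 0.17, from 19.2 ± 5.68 to 65.1 ± 2.91 FPKM (SD, n = 3, limma adjusted p = 7.28e-05). Flt4, the receptor for Vegfc, had a difference of -0.35 ± 0.15 that did not pass (adjusted p = 0.136).

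Tip cell genes, which mark sprouting endothelium, changed in both directions. Of 16 tested, 5 fell and 3 rose (median 0.02), and scaling to an equal sum left 3 falls. Kcne3, a potassium channel subunit, was at 23.04, 21.6 and 24.7 FPKM in GFP+ and 68.6, 62.6 and 61.7 FPKM in GFP- libraries. Esm1, endocan, was at 5.62, 4.09 and 7.70 and 14.1, 14.7 and 13.9 FPKM. Igfbp3, which binds insulin-like growth factors, was at 147, 130.03 and 166 and 331, 326 and 279 FPKM. In each the GFP+ values were all under the GFP- values, by 1.44 ± 0.18, 1.20 ± 0.18 and 1.08 ± 0.18 on the log2 scale (adjusted p = 0.000391, 0.00123 and 0.00245). Nid2, above, is also on this list, as are Cd34 (0.68 ± 0.14) and Plaur, the urokinase receptor (1.11 ± 0.15), which rose. Of 11 venous and lymphatic genes tested 2 rose and 1 fell (median 0.26). Prox1, the regulator of lymphatic identity, was low in both groups, at 1.66, 1.73 and 1.60 and 3.21, 5.03 and 3.21 FPKM, and fell by 0.83 (adjusted p = 0.00443). The ephrin receptor gene Ephb4, used as a venous marker, rose by 0.57 ± 0.11 (adjusted p = 0.00757), and the venous regulator Nr2f2 was at 37.6, 41.2 and 40.2 and 30.9, 40.6 and 28.5 FPKM and did not pass (0.26 ± 0.14, adjusted p = 0.251; named after its values were seen).

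Among 36 TGF-beta and BMP genes tested, 10 rose and 2 fell (median 0.08, 9 of the 10 held under every alternative). The ligand gene Bmp6 was at 8.91, 7.38 and 11.4 FPKM in GFP+ and 1.32, 1.10 and 1.24 FPKM in GFP- libraries (2.19 ± 0.17, adjusted p = 1.2e-05), and Bmp4 at 20.1, 23.5 and 22.4 and 13.3, 13.6 and 12.9 FPKM (0.69 ± 0.10, adjusted p = 0.00117). Neither pair of groups overlapped. The inhibitory Smad genes rose with them, Smad6 from 18.3 ± 2.30 to 51.7 ± 2.43 FPKM (1.46 ± 0.11, adjusted p = 8.61e-06) and Smad7 from 22.6 ± 5.31 to 43.6 ± 1.29 FPKM (0.95 ± 0.15, adjusted p = 0.00194; SD, n = 3). Tgfbi, a matrix protein induced by TGF-beta, fell by 0.96, at 21.9, 19.5 and 25.003 against 42.5, 31.9 and 62.3 FPKM (adjusted p = 0.0107).

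Of 32 Wnt pathway genes tested 5 rose and 3 fell (median 0.00). The rises were 2 without GFP+ replicate 1 or 3 and 3 without GFP+ replicate 2. None of the 3 falls held under every alternative, and with 1 library left out they ran from 0 (without GFP+ replicate 2 or 3 or GFP- replicate 1 or 3) to 5 (without GFP- replicate 2). The receptor gene Fzd6 rose by 1.15 ± 0.13 and the co-receptor gene Lrp5 by 0.57 ± 0.11 (adjusted p = 0.000198 and 0.00662). In the insulin-like growth factor axis 6 of 15 rose and 2 fell, and with 1 library left out the rises were 4 to 6 and the falls 1 or 2. The imprinted ligand gene Igf2 was among the most abundant transcripts, at 2324, 2565 and 2532 FPKM in GFP+ and 1566, 1605 and 1559 FPKM in GFP- libraries, a tight difference of 0.65 ± 0.07 (adjusted p = 0.00017) that was 1.07 under quantile normalization. Its imprinted neighbour H19 and the receptor gene Insr rose by 0.42 and 0.82 (adjusted p = 0.0091 and 0.000948). The H19 call was lost when the endothelial libraries were fitted alone and without the filter on low values. Of 34 guidance and chemokine genes tested, 9 rose and 3 fell (median 0.03). The rises were 6 to 10 with 1 library left out, fewest without GFP+ replicate 2. The falls were 0 without GFP+ replicate 2 or 3, 1 without GFP+ replicate 1, GFP- replicate 1 or GFP- replicate 3, and none held under every alternative. Sema3g, a semaphorin of arterial endothelium, was at 55.1, 57.9 and 60.6 and 21.4, 22.5 and 15.9 FPKM (1.504 ± 0.16, adjusted p = 0.000151), and Ntn4, a netrin that binds laminin, at 4.18, 4.51 and 4.01 and 0.916, 0.747 and 0.705 FPKM (1.55 ± 0.15, adjusted p = 7.98e-05). The groups did not overlap in either. Ntn4 passed the filter through the GFP+ libraries alone and was not tested where 1 of them was left out. The chemokine gene Cx3cl1 rose by 0.88 ± 0.10 (adjusted p = 0.00023).

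Genes of blood stem cells were also higher, at low levels for those that belong to blood. Of 29 tested, 12 rose and none fell (median 0.37, 11 of the 12 held under every alternative that tested them). Several are shared with endothelium: Vwf and Procr, above, and the transcription factor genes Gata2, at 35.9, 35.8 and 34.4 FPKM in GFP+ and 17.3, 21.7 and 15.3 FPKM in GFP- libraries (0.94 ± 0.12, adjusted p = 0.000493), and Lyl1, at 46.2, 57.3 and 49.3 and 26.5, 29.5 and 22.9 FPKM (0.93 ± 0.11, adjusted p = 0.000303). Every GFP+ value was above every GFP- value. Spn (CD43), a surface protein of blood cells, was at 1.93, 2.37 and 1.52 and 0.255, 0.250 and 0.294 FPKM. Gfi1, a repressor active in the passage from endothelium to blood, was at 1.87, 4.69 and 2.30 FPKM in GFP+ libraries and listed at 0.0887, 0 and 0 FPKM in GFP- libraries. Both passed (1.20 ± 0.15 and 1.88 ± 0.30, adjusted p = 0.000415 and 0.00182), and with a pseudocount of 0.1 the difference of Spn was 2.46. Gfi1 was named after its values were seen. Runx1, which drives that passage, was at 0.937, 0.913 and 1.22 and 0.629, 0.270 and 1.44 FPKM, under the filter, and was not tested. Cd27, a co-stimulatory receptor, was at 0.707, 1.59 and 0.753 FPKM in GFP+ and listed at 0.256, 0.226 and 0 FPKM in GFP- libraries, also under the filter.

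Of 11 Ly6 family genes tested, 3 rose (Ly6a, Cd59a at 0.72 ± 0.12 and Plaur) and 2 fell. Gpihbp1, the capillary anchor of lipoprotein lipase, was at 12.7, 10.7 and 12.2 FPKM in GFP+ and 30.6, 30.3 and 30.6 FPKM in GFP- libraries and fell by 1.29 (adjusted p = 0.00411). The GFP- values were nearly equal to each other. Ly6h was at 19.5, 21.7 and 16.5 and 34.99, 33.6 and 30.7 FPKM and fell by 0.76 (adjusted p = 0.011), a call lost without GFP+ replicate 3 (-0.66). Of 26 interferon-response genes tested 3 passed, all higher (median 0.51), but the 3 calls were 0 without GFP+ replicate 3 and 1 without GFP+ replicate 2 or GFP- replicate 1. In 17 of the 26 every GFP+ value was above every GFP- value, a pattern that 15.3% of all genes show. Of 11 antigen presentation genes 4 rose and none fell (median 0.69). H2-D1, a class I heavy chain, was at 115, 115 and 112 and 53.8, 50.1 and 43.8 FPKM (1.19 ± 0.18, adjusted p = 0.00155), with both groups tight and apart, though reads of class I genes can be split between near-identical copies.

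Markers of other cell types were present and differed between libraries. Of 25 smooth muscle and mesenchyme genes, summed FPKM was 421, 318 and 608 in the GFP+ libraries and 1118, 366 and 1503 in the GFP- libraries, and none was at 0 throughout. GFP- replicates 1 and 3 stood apart from the other 4 libraries. Of the 21 tested, 1 passed: Lum, a proteoglycan of fibroblasts, at 16.6, 10.6 and 23.5 FPKM in GFP+ and 79.8, 27.3 and 110.5 FPKM in GFP- libraries (-1.89 ± 0.56, adjusted p = 0.0418). Its call was lost without any library other than GFP- replicate 2 and, at -1.69, with an equal sum. Without GFP- replicate 2, 11 of the mesenchyme genes were lower, and with the replicate number in the model (a replicate block) 9 were. The list's median was -0.65. Defining markers ran from Pdgfra, at 3.98, 2.99 and 4.69 and 8.22, 4.002 and 15.6 FPKM, to Acta2, the smooth muscle actin, at 78.8, 76.04 and 108 and 95.6, 27.98 and 153 FPKM, and Myh11, of mature smooth muscle, was at 0.493, 0.135 and 0.838 and 0.609, 0.203 and 1.18 FPKM. Within each group Eln, above, was lowest in replicate 2 and highest in replicate 3, the order of this sum. Between the groups, the lowest GFP+ value of Eln, 211 FPKM, came with a sum of 318 FPKM, and the highest GFP- value, 17.6 FPKM, with a sum of 1503 FPKM. The part of mesenchymal RNA in the elastic fibre values was not tested.

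Red cell genes were lower in GFP+ libraries. The 24 in the table summed to 1056, 2555 and 1259 FPKM in GFP+ and 4334, 3483 and 7992 FPKM in GFP- libraries, and 12 of 20 tested fell and none rose (median -0.90). Hbb-y, an embryonic beta-like globin, was at 608, 1391 and 688 FPKM in GFP+ and 2599.9, 2047 and 4669 FPKM in GFP- libraries and fell by 1.80 (adjusted p = 0.00505). Hbb-bh1 was at 129, 414 and 171 and 610.2, 602 and 1372 FPKM and Hba-x at 132, 429.6 and 191 and 637, 478 and 1164 FPKM (-1.92 and -1.67, adjusted p = 0.0131 and 0.0194). GFP+ replicate 2 came closest to the GFP- values in all 3. Without GFP+ replicate 1 or 3 the falls were 3 of the list, without GFP- replicate 3 they were 6, and with the endothelial libraries alone they were 2. The calls on Hbb-bh1 and Hba-x were lost without GFP+ replicate 1 (-1.57 and -1.30) or 3 (-1.78 and -1.57), and that on Hba-x also without GFP- replicate 3 (-1.31). Alas2, which starts heme synthesis in erythroid cells, fell by 1.35 (adjusted p = 0.00967). Globin reads can be split between near-identical genes.

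Lists of further cell types had 1 or 2 members past the test in each direction at most. The 25 macrophage genes summed to 159.8 to 183 FPKM in GFP+ and 120.1 to 121 FPKM in GFP- libraries. The macrophage genes C1qa, at 2.20, 1.91 and 6.06 and 1.15, 1.20 and 1.82 FPKM, and Csf1r, at 1.92, 1.39 and 3.47 and 1.13, 1.21 and 1.46 FPKM, did not pass. Of 17 platelet genes 1 rose (Vwf) and 1 fell, and Pf4, platelet factor 4, was at 38.5, 10.7 and 136 and 89.8, 56.2 and 195 FPKM and overlapped. In the 15 neural genes the sum was 163 to 206 FPKM in GFP+ and 48.7 to 57.7 FPKM in GFP- libraries. The median difference of the 7 tested was 0.03, and Stmn2 held most of the sum in every library. This microtubule regulator, known from neurons, was at 154, 179 and 142 and 39.8, 32.4 and 32.8 FPKM (2.15 ± 0.11, adjusted p = 6e-07). The other neural gene that passed, Isl1, lost its call without any library other than GFP+ replicate 3 (lowest value 0.67). In the epithelial list 1 of 10 rose, Gata3 (1.09 ± 0.20, adjusted p = 0.0043), while Epcam was at 3.45, 4.34 and 2.62 and 2.65, 2.67 and 3.29 FPKM and overlapped. In the yolk sac and liver list 1 of 6 passed, Sox17, an arterial as well as an endodermal factor, at 86.2, 91.3 and 81.8 and 60.1, 63.3 and 36.6 FPKM (0.72 ± 0.21, adjusted p = 0.0401). The Sox17 call was lost without any GFP+ library or GFP- replicate 3 (lowest value 0.48). The plot of summed marker lists gives each library.

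**Figure D4:**
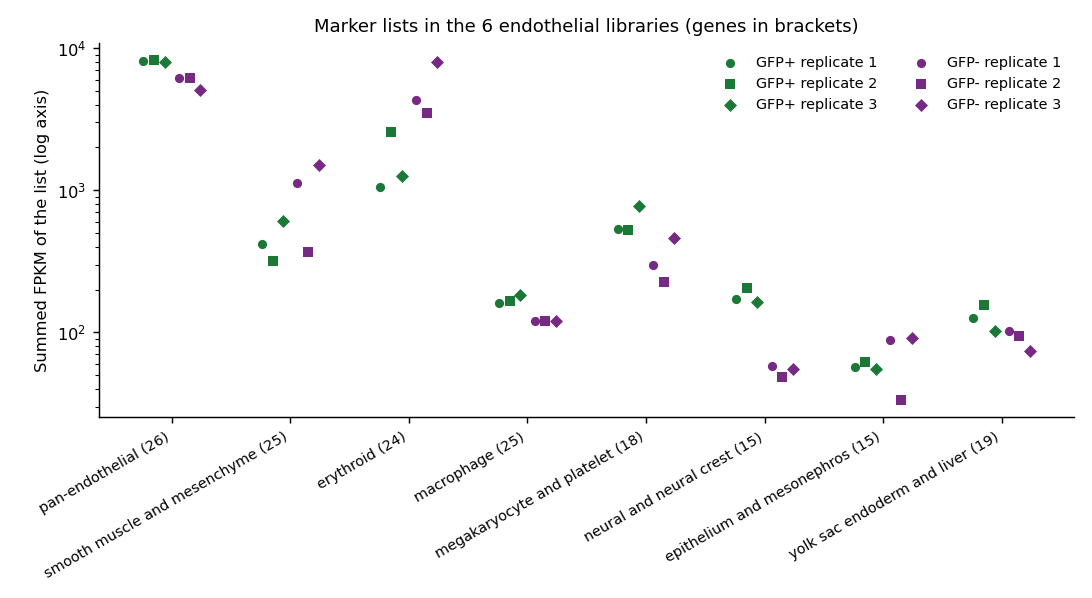
Summed FPKM (y axis, log scale) of pan-endothelial genes and of 7 lists of other cell types in the 6 endothelial libraries, GFP+ in green and GFP- in purple, with a symbol per replicate. GFP- replicates 1 and 3 are highest for mesenchyme at 1118 and 1503 FPKM, and all 3 GFP- libraries are above the GFP+ libraries for red cell genes. The neural sum is 163 to 206 FPKM in GFP+ against 48.7 to 57.7 FPKM in GFP- libraries. Most of it is Stmn2, at 142 to 179 against 32.4 to 39.8 FPKM.

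Cell cycle and glycolysis genes had more falls than rises as deposited. Of 21 S phase genes 5 fell and of 22 G2 and M phase genes 7 fell, with no rises (medians -0.15 and -0.19). Scaled to an equal sum, the falls were 2 and 0 and the medians 0.06 and 0.01, so the direction of both groups rests on the scaling, and the 7 falls were 1 to 3 without GFP+ replicate 1, 2 or 3 or GFP- replicate 1 or 3. Ccne2, a cyclin of S phase entry, had the largest change, at 11.5, 12.99 and 10.2 FPKM in GFP+ and 18.97, 20.9 and 28.3 FPKM in GFP- libraries, and fell by 0.90 (adjusted p = 0.00218). The inhibitor gene Cdkn1c, an imprinted brake on the cell cycle, was abundant, at 258, 246 and 241 and 377, 336 and 340.3 FPKM, and fell by 0.49 (adjusted p = 0.00171), by 0.29 with an equal sum. The groups were apart for both. Of 19 glycolysis enzymes 7 fell and none rose (median -0.34, 3 falls with an equal sum and 4 without GFP+ replicate 1, GFP+ replicate 3 or GFP- replicate 3). Gapdh was at 137, 172 and 148 and 277, 245 and 322 FPKM and fell by 0.88 (adjusted p = 0.000636).

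Of 12 mitochondrially encoded genes tested 9 fell and none rose (median -0.68). mt-Nd6, a subunit of complex I and the only one of these protein genes on the light strand, was at 117, 149 and 78.7 FPKM in GFP+ and 448, 444 and 594 FPKM in GFP- libraries. The groups were far apart, and it fell by 2.13 (adjusted p = 6.1e-05). The falls of the list were 5 without GFP+ replicate 3 or GFP- replicate 3. They were 7 with an equal sum, 4 with the endothelial libraries alone and 4 with the length trend removed. Of the 9, 2 held under every alternative, and the median was -0.24 under quantile normalization. Of 78 genes of cytosolic ribosomal proteins, a list added after values were seen, 47 fell and none rose (median -0.38, -0.18 with an equal sum), and 17 fell without GFP+ replicate 1 or 3, 23 without GFP- replicate 1 and 19 without GFP- replicate 3. These genes have many processed copies and mostly short transcripts. Of 31 Hox genes tested 4 rose and 3 fell (median -0.03). The falls ran from 0 (without GFP+ replicate 2 or GFP- replicate 3) and 1 (without GFP+ replicate 1 or 3 or GFP- replicate 1) to 7 (without GFP- replicate 2), and the rises were 1 without GFP+ replicate 3 and 2 without GFP+ replicate 1 or GFP- replicate 1. Hoxa9 was the only rise that held under every alternative, at 35.2, 32.2 and 31.9 and 20.6, 17.9 and 11.99 FPKM (0.97 ± 0.16, adjusted p = 0.00221).

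Genes outside the lists stood among the largest changes. Cytl1, a small secreted protein, was at 21.3, 19.1 and 27.3 FPKM in GFP+ and 1.23, 0.473 and 1.38 FPKM in GFP- libraries. Pi16, a secreted peptidase-inhibitor family protein known from fibroblasts, was at 40.9, 40.4 and 46.2 and 2.92, 2.22 and 3.05 FPKM. Adrb1, the beta-1 adrenergic receptor, was at 19.01, 16.9 and 18.2 and 2.11, 2.38 and 0.864 FPKM. None of these overlapped, and the differences were 3.55 ± 0.23, 3.55 ± 0.20 and 2.82 ± 0.20 (adjusted p = 3.68e-06, 1.23e-06 and 6.31e-06). S100a4, a calcium-binding protein common in fibroblasts, was at 14.2, 20.01 and 22.1 FPKM in GFP+ and listed at 3.39, 0.959 and 0 FPKM in GFP- libraries (3.25 ± 0.41, adjusted p = 0.000439). The largest falls outside the lists were less stable. Fgf12, an intracellular relative of fibroblast growth factors, was at 0.0374, 0.239 and 0.185 and 3.52, 1.62 and 12.9 FPKM, with GFP- replicate 3 far above its group. Its difference was -2.25 ± 0.57 (adjusted p = 0.0235, -4.19 with a pseudocount of 0.1), and the call was lost without GFP+ replicate 1 (-2.18), 2 (-2.30) or 3 (-2.27). Fgf12 passed the filter through the GFP- libraries alone. It was not tested where a GFP- library, the high replicate 3 included, was left out. Sema3a, a repulsive guidance cue, at 1.67, 1.07 and 2.68 and 5.70, 3.74 and 17.8 FPKM, and the carboxypeptidase gene Cpz, at 1.55, 0.729 and 2.002 and 11.4, 3.26 and 8.50 FPKM, also passed (-1.63 and -1.75, adjusted p = 0.0401 and 0.022). The Sema3a call was lost without any library other than GFP- replicate 2, down to -1.05 without GFP- replicate 3, and the Cpz call without GFP+ replicate 1 (-1.80) or 2 (-1.52) or GFP- replicate 1 (-1.43) or 3 (-1.62).

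The difference between GFP+ and GFP- cells was set against the same difference in cluster cells, with the difference of the 2 differences as a contrast of the same fit. It passed for 63 of the 12375 genes (0.509%), of which 56 were among the genes changed in endothelium. Of the 45 higher in GFP+ endothelium, 42 had the larger difference there. Genes picked by a rise in endothelium and by the contrast had little room to do otherwise. That share therefore does not tell in which cell type rises are larger. The count of genes past the contrast was 16, 19 or 18 without GFP+ endothelial replicate 1, 2 or 3. Fbln5 was at 2.72, 2.78 and 4.90 FPKM in GFP+ and 1.95, 1.14 and 1.91 FPKM in GFP- cluster cells, a difference of 0.73 ± 0.24 against 3.40 ± 0.24 in endothelium (contrast 2.67 ± 0.34, adjusted p = 0.00663). Fbn1 was at 11.1, 10.5 and 9.47 and 12.5, 8.46 and 12.99 FPKM in cluster cells (-0.10 ± 0.14; contrast 2.03 ± 0.20, adjusted p = 0.00248). Cluster cells showed no separation for Fbn1 where endothelium did. Htra1, Pi16, Lamc3, Lama3, Lamb3, Bmp6, Hey2, Ltbp4, Fn1, Sema3g, Smad6 and Jag1 also had the larger rise in endothelium, with contrasts of 1.18 to 2.45 apart from Smad6 at 1.08. For Eln the contrast was 2.32 ± 0.45 and did not pass (adjusted p = 0.0516), nor did it for Gja5 (0.39 ± 0.24, adjusted p = 0.584) or Vwf (0.70 ± 0.19, adjusted p = 0.152).

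A few genes differed from this pattern. Spn had a difference of 2.69 ± 0.15 in cluster cells and 1.20 ± 0.15 in endothelium (contrast -1.49 ± 0.21, adjusted p = 0.011), at 9.08, 11.5 and 9.01 FPKM in GFP+ and 0.667, 0.772 and 0.580 FPKM in GFP- cluster cells. Unc5b fell in cluster cells (-1.57 ± 0.11) and had a smaller difference in endothelium (-0.29 ± 0.11; contrast 1.28 ± 0.15, adjusted p = 0.00458). Cdkn1c fell in endothelium and had a difference above 0 in cluster cells (-0.49 ± 0.08 and 0.21 ± 0.08; contrast -0.70 ± 0.11, adjusted p = 0.0165). For the red cell genes Hbb-y, Hbb-bh1 and Hba-x the differences were -2.86, -3.06 and -3.01 in cluster cells, and their contrasts did not pass.

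**Figure D5:**
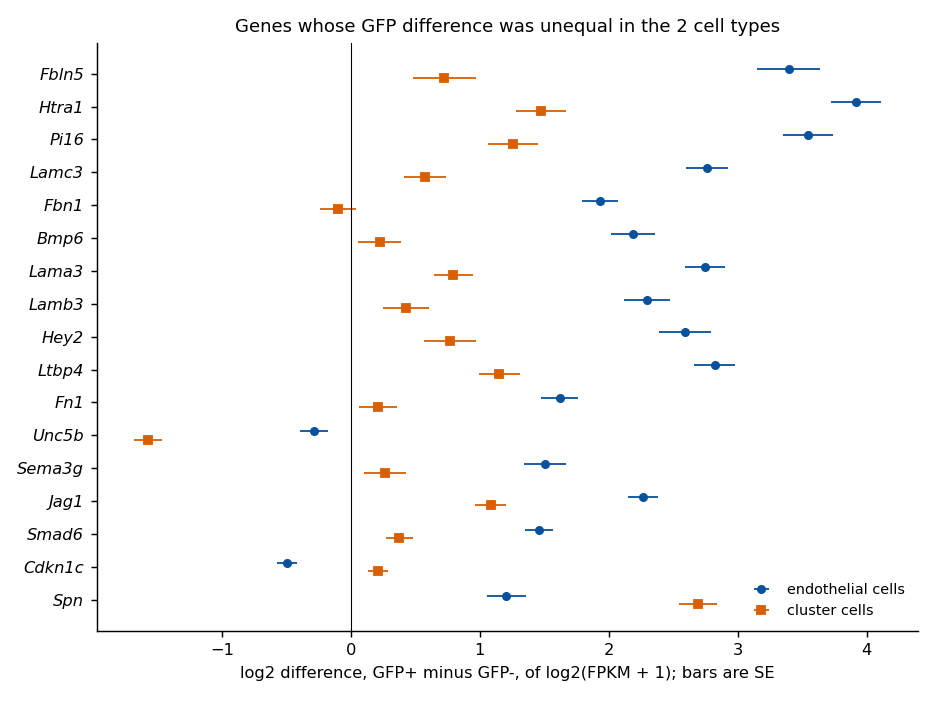
Log2 differences of GFP+ minus GFP- on log2(FPKM + 1) in endothelial (blue) and cluster cells (orange) for the 17 named genes whose 2 differences were unequal at a limma adjusted p under 0.05, with bars for 1 SE. Endothelial values lie to the right of cluster values for all but Cdkn1c and Spn, and Fbln5 shows the widest gap at 2.67.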

How the data were processed

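RNA was sequenced from 12 pools of sorted cells in 4 groups of 3, with poly(A)-selected libraries per the labels' protocols. The deposited table holds the authors' FPKM, 1 column per library, with genome build mm9 and the tools Cufflinks, featureCounts, edgeR and DESeq named per the submitters' processing notes, which give neither their roles nor their versions. Aligner, gene annotation, strandedness and scaling of the libraries to each other: not given in the sources used here. No column of other samples was present (0 columns). The values are not whole multiples of a fragment's worth, so counts were not recovered and the absolute depth of each library is unknown. From the steps of low values, the 6 endothelial libraries had estimated depths of 0.618 to 1 relative to the deepest. By pair of libraries, only 12.9% to 25.8% of low genes lay at such steps, so the estimate is rough. Exact zeros can be failed estimates, so genes with zeros are given as listed.

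Genes with 1 FPKM or more in at least 3 of the 6 endothelial libraries were tested with limma 3.58.1 (R 4.3.3) on log2(FPKM + 1), a pseudocount of 1 that understates the change of low genes. A single model with 4 group means was fitted over all 12 libraries (8 residual degrees of freedom, eBayes with trend), with two-sided tests and Benjamini-Hochberg adjustment over 12375 genes at a threshold of 0.05. Adjusted p-values in the text are from this test. The labels call the pools independent biological samples but tie none to embryos, and the p-values therefore reflect how far pools of a group differ. The procedure was run on simulated data of independent noise around equal group means, apart from genes given a known difference. Those data lacked the differences between libraries given above, so the run cannot tell how these affect the calls. The 34 gene lists, their members and the comparison were chosen with earlier results of these data known, and 1 list of ribosomal protein genes was added, so lists are described by counts and medians only. Of 750 listed symbols, 737 were in the table, 8 of them under an older symbol.

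Genes named are the sort and given markers, Ptprc and Cd27, the 12 largest rises and 12 largest falls past the threshold without overlap and with a mean of 5 FPKM or more in the higher group (gene models, pseudogenes and small RNAs excepted), and for each list the members past the threshold, up to 6 of smallest p, with the strongest in the other direction, or the 2 of smallest p where none passed. Other genes are marked in the text as named after their values were seen, and so were Lox, Col1a1, Col3a1, Pdgfra, Acta2, Myh11, C1qa, Csf1r, Pf4, Epcam, Runx1 and Ddb1. Alternatives were another pseudocount (0.1), no filter and a stricter one (mean FPKM of 5), equal sums, quantile normalization, the endothelial libraries alone, a replicate block and each endothelial library left out in turn. A further 3, chosen after seeing the data, removed the trend with transcript length, scaled to equal sums without mitochondrially encoded and ribosomal protein genes, and left out doubtful zeros. Transcript lengths came from the reference annotation supplied (GENCODE vM21) for 95.1% of tested genes, and promoter sequence from RefSeq on GRCm38.p6. No coordinate was converted between builds. Results for some genes are not reported here.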

Additional observations from a re-analysis of the deposited data

Results flagged for a closer look

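For 17 named genes the difference between GFP+ and GFP- cells was unequal in endothelial and cluster cells by a test of that contrast (endothelial minus cluster difference, log2, limma adjusted p under 0.05). Among genes of the matrix and secreted factors the contrasts were Fbln5 2.67, Htra1 2.45, Pi16 2.29, Lamc3 2.19, Fbn1 2.03, Bmp6 1.97, Lama3 1.95, Lamb3 1.87, Ltbp4 1.67 and Fn1 1.41. Among arterial and signalling genes they were above 0 as well, with Hey2 at 1.82, Unc5b at 1.28, Sema3g at 1.24, Jag1 at 1.18 and Smad6 at 1.08. Unc5b did not itself pass in endothelium, and its contrast comes from its fall in cluster cells. The contrast was below 0 for Spn (-1.49) and Cdkn1c (-0.70). The adjusted p-values ran from 0.00248 for Fbn1 to 0.0454 for Sema3g. Groups of 3 libraries were not searched for single outlying samples.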

How the results depend on the processing

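The depth of the libraries is unknown, which leaves the counting error of genes at a few FPKM unmeasured, and the cause of the changes below was not tested. Scaling to an equal sum moved the counts most, to 1965 higher and 300 lower genes, with 132 genes past the contrast between endothelial and cluster cells and a median over all genes of 0.15. All 973 higher genes were among the 1965. With mitochondrially encoded and ribosomal protein genes left out of the sum, 550 genes were lower and the median was 0.044. The median was -0.019 with no filter, -0.012 under quantile normalization and -0.0026 with the length trend removed. Fitting the endothelial libraries alone left 404 lower and 653 higher genes. The contrast between cell types passed for 39 genes with a pseudocount of 0.1, for 38 under the stricter filter and for 100 with the length trend removed. Where the share of higher genes among calls moved by over 10 percentage points from 51.4%, it was 86.8% with equal sums, 69.5% with equal sums less the mitochondrially encoded and ribosomal protein genes, 61.8% with the endothelial libraries alone and 61.6% with the length trend removed.

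Leaving out 1 endothelial library at a time gave 567 to 1033 higher genes, 416 to 1257 lower genes, a median of -0.045 to -0.032 and 16 to 75 genes past the contrast. The most lower genes were called without GFP- replicate 2, of which 728 were among the 919, and the fewest without GFP+ replicate 3. A gene at 1 FPKM or more only in the GFP+ group, such as Lama3, is not tested when a library of that group is left out. Of 159 named genes past the threshold, 107 passed in the same direction under every alternative that tested them, 52 lost the call under at least 1 and 0 changed direction. The values that changed sign belonged to 4 genes that did not pass. With equal sums Kit was at 0.0054, Robo4 at 0.041, the heme oxygenase gene Hmox1 at 0.11 and the class II gene H2-Ab1 at 0.054. With the length trend removed Hmox1 was at 0.025 and H2-Ab1 at 0.10. With 1 library left out Hmox1 ran from -0.27 to 0.0045 and H2-Ab1 from -0.18 to 0.11.

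The replicate numbers are shared by name between the groups. Deviations of same-numbered GFP+ and GFP- libraries from their group means correlated across genes at 0.0749, -0.0352 and 0.157. Of 6 libraries, 3 correlated best with their own number, and the numbers were not taken to pair the pools. A correlation over all genes cannot settle this for genes that follow the number. Hbb-bh0 was listed at 0, 714 and 0 FPKM in GFP+ and 421, 854 and 60.0 FPKM in GFP- endothelium. In cluster cells it was listed at 0, 385 and 0 and 395, 445 and 21.7 FPKM. The mesenchyme sum was lowest in replicate 2 of both endothelial groups. Whether the pools are paired was not tested. With a replicate block 958 genes were higher and 945 lower, and 71 passed the contrast. The block raised the lower calls among collagens from 1 to 8, among mesenchyme genes from 1 to 9, among proteoglycans from 1 to 6 and among Hox genes from 3 to 8.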

Other observations

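Over 11766 genes with a transcript length, Spearman's rho of length with the GFP+ minus GFP- difference was 0.223 in endothelial and -0.0153 in cluster cells. In endothelium 15.0% of 867 genes of at most 1000 bases were lower and 3.23% higher, against 2.66% lower and 10.8% higher among 640 genes over 8000 bases. The median differences of the same classes in cluster cells were -0.02 and -0.03. Genes are not independent replicates and share their libraries, and no test of this relation was made. With the length trend removed, Eln was at 4.17, Htra1 at 3.99, Fbln5 at 3.35, Gja5 at 2.73 and Fbn1 at 1.81, and mt-Nd6 was at -1.81.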
